A study of Mus musculus with 24 samples.

Results

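The circadian clock genes are described here in interscapular brown adipose tissue (iBAT), a thermogenic depot of the mouse. The members were given as a list of names: the activators Arntl and Clock, the repressors Per1, Per2, Per3, Cry1 and Cry2, the nuclear receptors Nr1d1 and Nr1d2, and the output gene Dbp. All 10 are among the 36144 genes of the table, and all 10 passed the filter on low counts that left 13129 genes to test. The rule used names and no threshold on measured values.

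RNA from 24 mice aged 6 to 8 months was sequenced after polyA selection, with 1 library per mouse. The 4 groups were Th-Cre mice given DCZ, Th-Cre mice given saline, WT (C57Bl/6J) mice given DCZ and WT mice given saline, and tissue was collected after 30 minutes. Each group held 6 mice, 3 females and 3 males. The labels give the Th-Cre genotype as B6.129X1- Tht1(cre)Te/Kieg, in which Cre recombinase is driven by tyrosine hydroxylase regulatory sequence so that Cre is made in neurons and other cells that produce catecholamines. DCZ, deschloroclozapine, activates designer receptors derived from muscarinic ones. The sources used here do not give the receptor, its delivery, the hour at which tissue was taken or the light cycle. The series title names the activation of sympathetic neurons that project to this depot as the question, addressed by Th-Cre mice given DCZ against those given saline, with WT mice treated alike beside them.

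In the mammalian clock the proteins of Arntl (also called BMAL1) and Clock pair and activate genes through E-box sequences, among them the Per, Cry and Nr1d genes and Dbp. PER and CRY proteins then return to the nucleus and inhibit the pair, while the REV-ERB receptors encoded by Nr1d1 and Nr1d2 repress Arntl, so that transcripts of Arntl and Dbp peak at opposite times of day. In brown fat, as in other peripheral tissues, the clock runs in the tissue's own cells, takes timing signals from feeding, temperature, hormones and sympathetic nerves, and is known to act on thermogenesis. Per1 is also known as a gene that responds rapidly to cAMP signalling.

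The promoter windows of the 3 clock genes to which the results below return most often are printed 5′ to 3′ on the strand of each gene, from 250 bases before to 50 bases after the RefSeq start site on GRCm38.p6. Cry2 and Nr1d2 are shown because they passed a test between genotypes, and Per1 because it had the largest fitted difference between DCZ and saline in Th-Cre mice. The genes themselves span 92403646 to 92434043 on chromosome 2 (Cry2), 18204054 to 18239127 on chromosome 14 (Nr1d2) and 69095217 to 69109960 on chromosome 11 (Per1) in GENCODE M21. Capitals mark each match to the clock motifs searched.
Cry2, chr2:92434020-92434319, minus strand: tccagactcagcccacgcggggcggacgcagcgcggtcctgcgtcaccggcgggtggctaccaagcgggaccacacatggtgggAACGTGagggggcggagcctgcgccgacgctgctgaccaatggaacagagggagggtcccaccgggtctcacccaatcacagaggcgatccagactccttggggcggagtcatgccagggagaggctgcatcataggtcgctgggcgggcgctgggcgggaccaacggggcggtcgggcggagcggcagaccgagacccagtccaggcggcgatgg
Nr1d2, chr14:18239057-18239356, minus strand: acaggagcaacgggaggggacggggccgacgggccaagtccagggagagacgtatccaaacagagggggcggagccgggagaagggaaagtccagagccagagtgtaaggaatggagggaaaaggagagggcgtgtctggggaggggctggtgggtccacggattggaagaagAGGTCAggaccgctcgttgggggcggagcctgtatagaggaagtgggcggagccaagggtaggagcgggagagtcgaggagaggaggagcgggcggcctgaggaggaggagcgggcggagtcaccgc
Per1, chr11:69098699-69098998, plus strand: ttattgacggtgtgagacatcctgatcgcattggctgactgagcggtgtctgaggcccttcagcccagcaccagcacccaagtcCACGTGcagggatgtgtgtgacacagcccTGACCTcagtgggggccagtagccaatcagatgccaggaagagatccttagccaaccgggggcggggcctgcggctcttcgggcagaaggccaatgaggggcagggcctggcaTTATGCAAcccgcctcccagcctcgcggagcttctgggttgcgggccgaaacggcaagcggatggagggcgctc

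The capitals in Cry2 are the E-box variant CACGTT read on the opposite strand, 166 bases before the start site. Those in Nr1d2 are AGGTCA, the core of the element to which REV-ERB receptors bind, 77 bases before the start. Per1 holds 3 matches: the E-box CACGTG at 166 bases, AGGTCA on the opposite strand at 137 bases and the D-box TTATGCAA, an element for Dbp and its relatives, at 24 bases before the start. Each motif was searched on both strands, and no pair of these motifs overlapped in the windows shown.

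Of the 10 clock genes, 9 had 1 or more windows (13 in all), and Per2 had none. The E-box CACGTG was in windows of Per1 and Cry1, against 7.15% of 32851 windows over all genes. Its variant CACGTT was in those of Cry1, Cry2 and Nr1d1 (4.68% of all windows). The D-box form TTATGTAA occurred at 2 places in Per3 (0.938% of all windows) and the form TTATGCAA in Per1 (0.743%). AGGTCA was in windows of Arntl, Clock, Per1 and Nr1d2 (16.3% of all windows), and the cAMP response element TGACGTCA, present in 1.79% of all windows, was in none of the 13. A match describes the letters of these windows and does not show that a factor binds there.

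Library depth was between 11.9 and 22.9 M estimated counts, and no pair of libraries looked like a duplicate. All 10 brown adipocyte markers were detected, with Ucp1 at 1752 to 6533 CPM (estimated counts relative to library size, scaled by the trimmed mean of M values). The 4 markers of sympathetic neurons summed to at most 0.222 CPM in any library, and Th had 1 estimated count over all libraries. In 6 libraries the 12 skeletal muscle markers averaged above 1 on the log2 CPM scale: those of 2 Th-Cre DCZ, 3 Th-Cre saline and 1 WT saline mice. The summed level of the 12 markers over all mice of a group ran from 2.11 to 521 CPM in Th-Cre DCZ, 1.23 to 1224 in Th-Cre saline, 2.11 to 12.5 in WT DCZ and 1.12 to 233 in WT saline mice. Library numbers 13 to 24 were all Th-Cre and 1 to 12 all WT, so an effect of genotype and one of library order cannot be told apart.

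Compared per kilobase of exon, Nr1d1 and Dbp were the most abundant clock transcripts and Arntl by far the least abundant. The length was the union of all annotated exons of a gene, and the order depends on it. Clock (13.7 kilobases) averaged 31.2 CPM and Cry1 (3.34 kilobases) 8.41 CPM before this division. The mean over 24 libraries was 32.8 ± 10 CPM per kilobase (SD) for Nr1d1, 27.8 ± 6.12 for Dbp, 18.2 ± 5.06 for Per1 and 13.9 ± 1.7 for Nr1d2. Then came Per3 at 7.46 ± 1.1, Per2 at 7.22 ± 1.71 and Cry2 at 6.39 ± 1.12, and below them Cry1 at 2.52 ± 0.478, Clock at 2.28 ± 0.293 and Arntl at 0.183 ± 0.0841 CPM per kilobase. Some steps of this order held in all 24 libraries: Nr1d2 lay above Per3, Cry2 above Cry1 and Clock above Arntl. Others lay within the spread between mice, since Nr1d1 was above Dbp in 15 libraries, Per3 above Per2 in 16, Per2 above Cry2 in 17 and Cry1 above Clock in 15.

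The genes also differed in how far mice lay apart. Across the 24 libraries the coefficient of variation of the CPM was 12.2% for Nr1d2 and 12.9% for Clock, against 30.6% for Nr1d1 and 46% for Arntl. Arntl rested on 7 to 49 estimated counts per library, which by itself makes its values coarse, while Nr1d1 rested on 682 to 2875. Nr1d1 shares 263 exon bases with Thra on the opposite strand (Thra averaged 59.1 CPM) and Dbp shares 539 with Sphk2 (20.2 CPM). Cry2 shares 295 with the antisense gene D930015M05Rik, and the sources used here do not say whether counting used strand, so reads from these partners cannot be told apart.

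**Figure D1:**
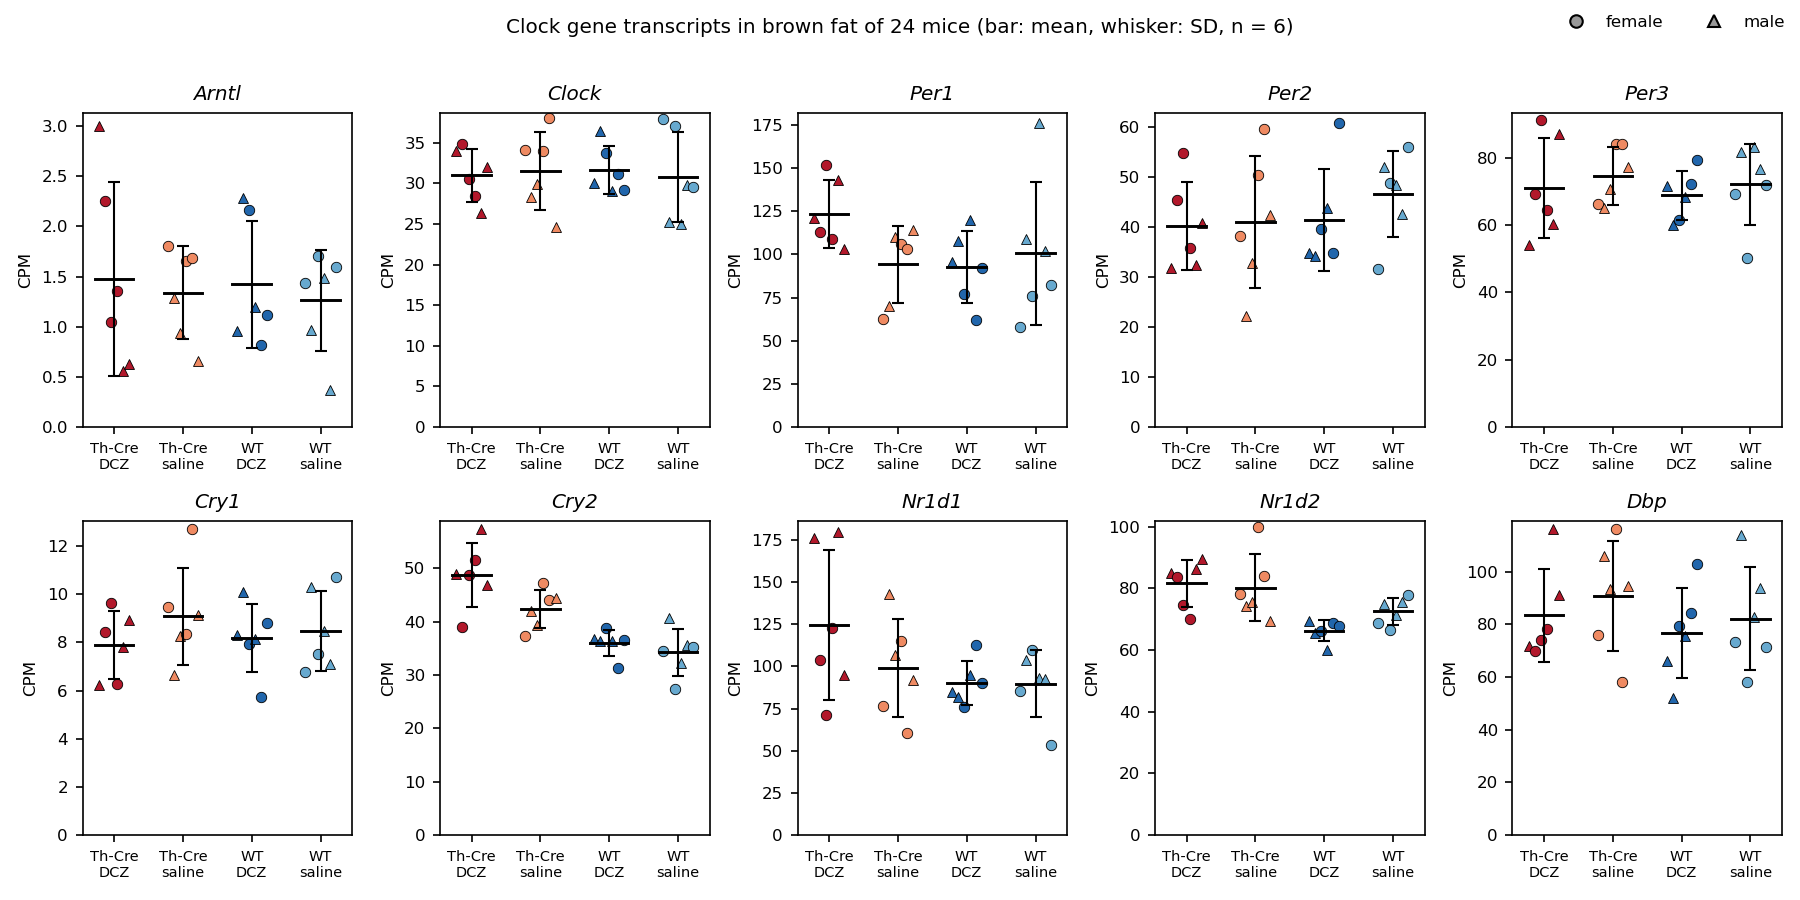
Levels of the 10 clock genes in brown fat in CPM (y axes from 0), 1 point per mouse, with a bar at the mean and a whisker of 1 SD for each group of 6 (Th-Cre DCZ, Th-Cre saline, WT DCZ and WT saline from left to right; circles are females, triangles males). Cry2 and Nr1d2 in Th-Cre DCZ mice lie above all WT DCZ mice, with lowest values of 39 and 70.2 CPM against highest WT DCZ values of 38.9 and 69.5 CPM, while these groups overlap for the other genes. The share of all genes that separate in this way is not given.

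The first question was whether DCZ moved the clock genes in Th-Cre mice within 30 minutes. None of the 10 passed edgeR's quasi-likelihood test with p-values adjusted by the Benjamini-Hochberg method over 13129 genes, in which 0.0229% of all genes (3) were called. At an unadjusted p under 0.05 there were 2 clock genes, Per1 and Cry2, among 745 genes in all, and no other method or left-out library gave a call. The median log2 fold change of the 10 was 0.01, against 0.00 over all genes tested, with 5 of 10 above 0.

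Per1, the PER family member known for rapid induction, ran from 103 to 152 CPM with a median of 117 in Th-Cre DCZ mice, against 62.3 to 114 with a median of 104 in Th-Cre saline mice. In WT mice it ran from 62 to 120 CPM with a median of 93.7 after DCZ, and from 58 to 176 with a median of 92.3 after saline. The Th-Cre DCZ group held no low values, but 3 of its 6 mice lay within the Th-Cre saline range, and the WT groups overlapped throughout. The log2 fold change of Th-Cre DCZ over Th-Cre saline was 0.40 ± 0.181 (SE), a 1.32-fold difference with a 95% interval of 0.02 to 0.77 on the log2 scale and an edgeR adjusted p of 0.83. In WT mice it was -0.10 ± 0.181 (adjusted p = 0.889), and the difference between the genotypes was 0.50 ± 0.256 (edgeR interaction, adjusted p = 0.688).

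The size of the Per1 difference varied between smaller sets of mice, split by library number or taken without the libraries that held muscle transcripts. Among the lower 6 Th-Cre library numbers the mean was 128 CPM after DCZ and 80.8 after saline (3 mice each), and among the upper 6 it was 118 after DCZ and 108 after saline. Leaving out the 6 libraries that held muscle transcripts kept 7 Th-Cre mice. The fitted difference in Th-Cre mice was then 0.81 ± 0.233, with an edgeR adjusted p of 0.477, and the interaction was 0.90 ± 0.29 (adjusted p = 0.61). The part of either in the Per1 values was not tested further.

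The other Per genes showed smaller fitted differences. Per2 averaged 40.2 ± 8.87 CPM in Th-Cre DCZ and 41 ± 13.2 in Th-Cre saline mice (SD, n = 6 each), a log2 fold change of -0.01 with a 95% interval of -0.37 to 0.35. Its Th-Cre values split with library number, at 44.1 CPM after DCZ and 31.1 after saline in the lower 6 library numbers and 36.3 after DCZ and 50.9 after saline in the upper 6. Per3 averaged 71.1 ± 14.9 CPM in Th-Cre DCZ and 74.6 ± 8.61 in Th-Cre saline mice, a log2 fold change of -0.07 (interval -0.32 to 0.19).

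Of the cryptochromes, which bind and inhibit the CLOCK and BMAL1 pair, Cry2 averaged 48.8 ± 6.04 CPM in Th-Cre DCZ and 42.4 ± 3.61 in Th-Cre saline mice. The log2 fold change was 0.20 ± 0.0852 (edgeR adjusted p = 0.776), and 4 of 6 Th-Cre DCZ mice lay above every Th-Cre saline mouse. In WT mice it was 0.07 ± 0.0858, and the interaction was 0.13 ± 0.121 (edgeR adjusted p = 0.814). Cry1, the scarcer of the pair, averaged 7.89 ± 1.41 CPM in Th-Cre DCZ and 9.09 ± 2 in Th-Cre saline mice, with a log2 fold change of -0.19 and an interval of -0.51 to 0.13.

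Nr1d1, which encodes REV-ERB alpha, ran from 71.1 to 180 CPM in Th-Cre DCZ mice, and from 60.8 to 143 in Th-Cre saline mice. The 2 high values, 176 and 180 CPM, came from males, and the other 4 mice of that group reached at most 123. The log2 fold change was 0.32 ± 0.193, with an interval of -0.07 to 0.72 that includes no change (edgeR adjusted p = 0.925). Nr1d2, for REV-ERB beta, had 0.03 (interval -0.13 to 0.19), and Dbp, which activates genes through D-boxes, had -0.12 (interval -0.47 to 0.23).

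Of the activators, Clock was measured closely and Arntl was not. Clock averaged 31 ± 3.28 CPM in Th-Cre DCZ and 31.5 ± 4.82 in Th-Cre saline mice, a log2 fold change of -0.01 with an interval of -0.21 to 0.19. For Arntl the means were 1.48 ± 0.969 and 1.34 ± 0.465 CPM, for Th-Cre DCZ and Th-Cre saline mice in that order, and the interval of -0.62 to 0.95 is wide. In WT mice DCZ gave no call either (0.00762% of all genes called, 1 gene, and 1137 genes at an unadjusted p under 0.05, no clock gene among them). The same held for the interaction (0.00762%, and 980 genes at an unadjusted p under 0.05, again with no clock gene).

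**Figure D2:**
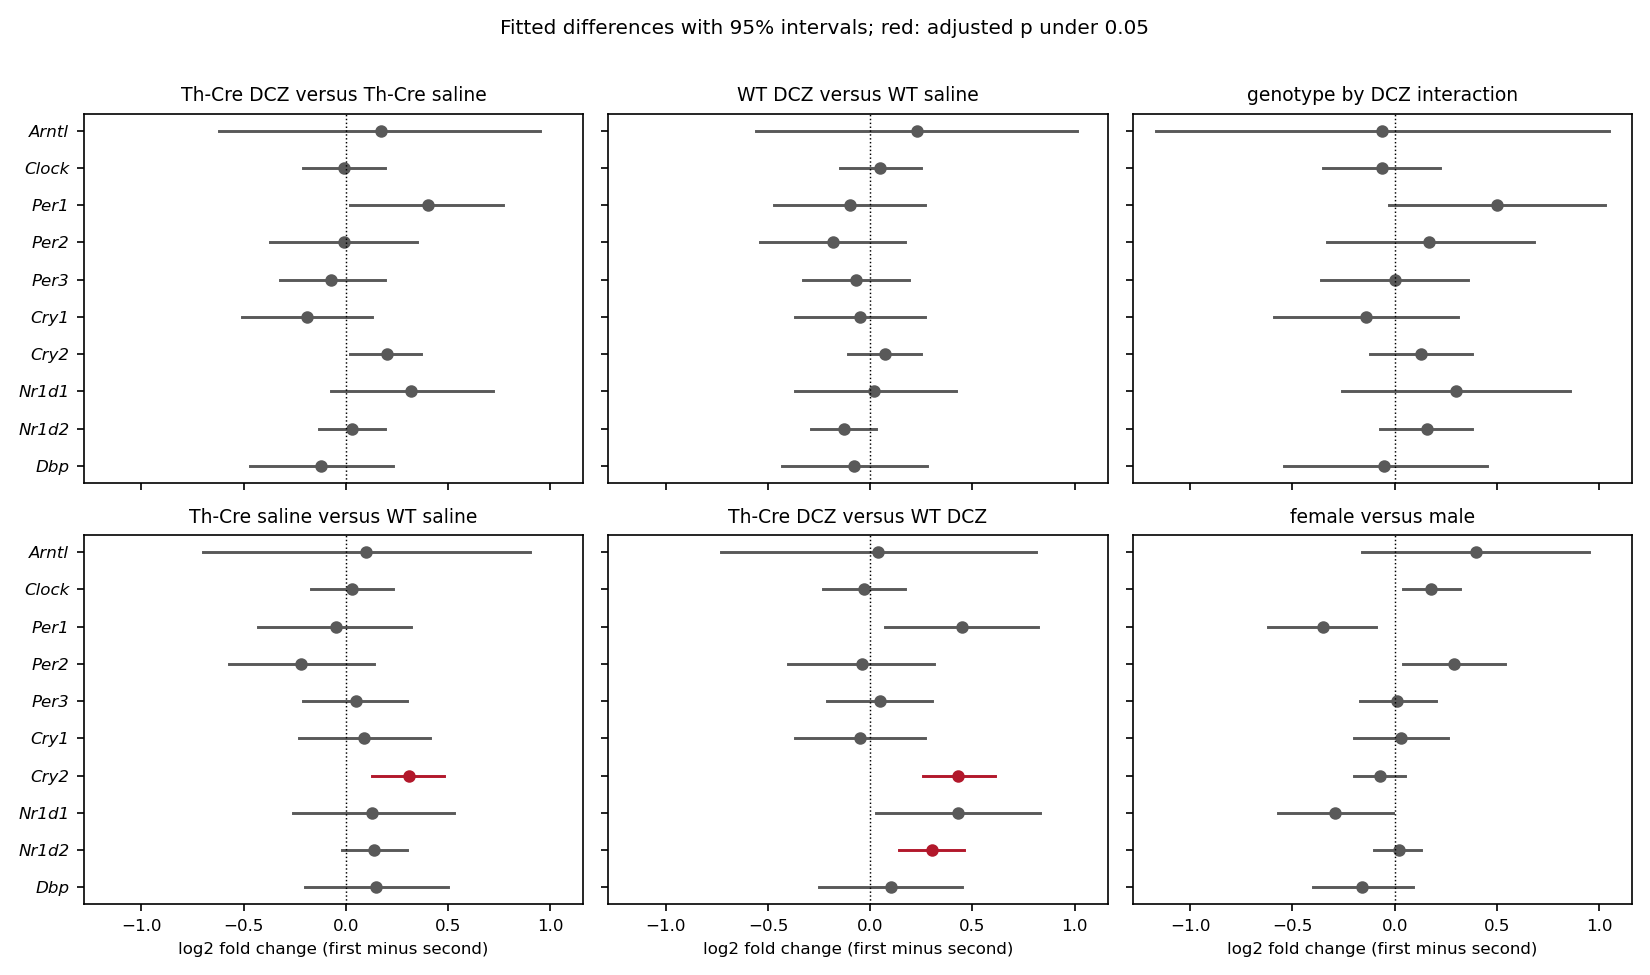
Fitted log2 fold changes (x axes, first group minus second) of the 10 clock genes in 6 comparisons, with 95% intervals from the edgeR quasi-likelihood fit; red marks an adjusted p under 0.05 over 13129 genes. Only Cry2 (0.31 and 0.43) and Nr1d2 (0.30) are red, all in comparisons of Th-Cre with WT, and the intervals of Arntl are the widest.

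Between the genotypes Cry2 was higher in Th-Cre mice after either injection, and Nr1d2 was higher in Th-Cre mice after DCZ. With library number (lower or upper 6 of each genotype) as a further term, Cry2 after saline was 0.21 (edgeR adjusted p = 0.797) and Nr1d2 after DCZ 0.27 (adjusted p = 0.0768), neither called, while Cry2 after DCZ was called at 0.34 (adjusted p = 0.0363). With that term 0 of 13129 genes were called after saline and 523 after DCZ, against 3270 and 1808 without it. As coded, that fit compares the genotypes at the lower 6 library numbers, which in WT mice held 5 DCZ mice and 1 saline mouse. Calls lost in it therefore do not show that a difference depends on library number. In females alone none of the 3 was called, where 6 of 13237 genes were called after saline and 30 after DCZ. In males alone Cry2 after saline was not called, where 658 of 13154 genes were. After saline, Cry2 ran from 37.3 to 47.2 CPM with a median of 43.1 in Th-Cre mice, against 27.4 to 40.7 with a median of 34.9 in WT mice. The groups overlapped, with 4 of 6 Th-Cre saline mice above every WT saline mouse. Cry2 rose by a log2 fold change of 0.31 ± 0.0859 in Th-Cre saline mice (1.24-fold, 95% interval 0.13 to 0.48, edgeR adjusted p = 0.0125). It was the 1 clock gene called in this comparison, in which 24.9% of all genes were called (12.5% higher and 12.4% lower in Th-Cre mice), so a count of 1 in 10 lies below the background. The median log2 fold change of the 10 clock genes was 0.09, against -0.01 over all genes tested.

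After DCZ, Cry2 ran from 39 to 57.4 CPM with a median of 48.8 in Th-Cre mice, against 31.4 to 38.9 with a median of 36.5 in WT mice. Every Th-Cre DCZ mouse lay above every WT DCZ mouse, though the lowest and the highest of these differed by little. The share of all genes that separate in this way is not given here, and 13.8% of all genes were called in this comparison. The log2 fold change was 0.43 ± 0.0852 (1.35-fold, interval 0.26 to 0.61, edgeR adjusted p = 0.00321). This comparison shares no mouse with that after saline, so the higher Cry2 level was seen in 2 separate sets of 12 mice. The 2 sets do share the genotype and the library numbers that go with it. Both tests also come from 1 fit, with its estimates of spread and sex.

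Nr1d2 ran from 70.2 to 89.7 CPM with a median of 84.5 in Th-Cre DCZ mice, against 60.1 to 69.5 with a median of 67 in WT DCZ mice. Again no value overlapped, and the nearest mice were at 70.2 CPM in Th-Cre DCZ and 69.5 in WT DCZ. The log2 fold change was 0.30 ± 0.0775 (1.23-fold, interval 0.14 to 0.46, edgeR adjusted p = 0.0139). After saline, Nr1d2 averaged 80.2 ± 10.8 CPM in Th-Cre and 72.5 ± 4.38 in WT mice, and the log2 fold change of 0.14 did not pass (edgeR adjusted p = 0.173). That the genotype difference depends on the injection was not shown, since the interaction for Nr1d2 was 0.16 ± 0.11 (edgeR adjusted p = 0.755).

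With 2 of 10 clock genes called after DCZ, against 13.8% of all genes (6.75% higher and 7.02% lower in Th-Cre mice), the count is near the background. The median log2 fold change of the 10 was 0.07, against -0.00 over all genes. A further 2, Per1 (0.45, adjusted p = 0.0977) and Nr1d1 (0.43, adjusted p = 0.132), had an unadjusted p under 0.05 and did not pass edgeR's adjustment. Nr1d1 passed among males alone, at 0.79 ± 0.208 (edgeR adjusted p = 0.0435), where 735 of 13154 genes were called. Among females it was 0.08 ± 0.28, and the difference between the sexes was not tested. Arntl, Clock, Per2, Per3, Cry1 and Dbp had log2 fold changes between -0.05 and 0.10 after DCZ, with adjusted p of 0.729 or more.

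Several markers moved with the genotype beside Cry2 and Nr1d2. All 12 skeletal muscle markers had fitted differences above 0 in Th-Cre mice after either injection. Their median log2 fold change was 2.58 after saline, with 0 called, and 4.34 after DCZ, with 2 called higher. The 10 brown adipocyte markers summed to 4952 to 7465 CPM in Th-Cre DCZ and 7688 to 10388 in WT DCZ mice, which did not overlap, and to 5618 to 7583 in Th-Cre saline and 7455 to 10033 in WT saline mice. None of them was at 0, and abundant markers weigh most in the sums, with medians of 3964 CPM for Ucp1 and 1521 for Cidea over all mice. The markers did not all move the same way. After DCZ 1 was called higher and 2 lower in Th-Cre mice, with 3 of 10 above 0 and a median log2 fold change of -0.14. After saline 2 were called lower, with 5 of 10 above 0 and a median of -0.01. The 5 endothelial markers were all called lower in Th-Cre saline mice, where they summed to 506 to 560 CPM against 527 to 944 in WT saline mice, while after DCZ 1 of 5 was called lower (480 to 597 CPM in Th-Cre and 555 to 798 in WT mice). Of 4 lymphocyte markers tested, 2 were called lower in Th-Cre mice after DCZ and 1 after saline, and the 5 on the list summed to 1.29 to 2.96 CPM in Th-Cre DCZ and 2.42 to 6.83 in WT DCZ mice, and to 1.39 to 2.98 in Th-Cre saline and 1.62 to 5.55 in WT saline mice. Over all genes 12.4% were called lower in Th-Cre mice after saline, and 6.75% were called higher and 7.02% lower after DCZ. Calls over all genes after saline fell to 109 of 13414 without the libraries with muscle transcripts. The marker calls in that fit are not given here. In bulk tissue fewer cells of a type and less RNA per cell cannot be told apart. Without the 6 libraries with muscle transcripts Cry2 was 0.42 ± 0.0935 after DCZ (edgeR adjusted p = 0.0198) and 0.27 ± 0.107 after saline (adjusted p = 0.132), and Nr1d2 after DCZ was 0.31 ± 0.0692 (adjusted p = 0.0189). The parts of brown adipocyte, endothelial and lymphocyte transcripts in these differences were not tested.

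Around these 10 genes a list of 25 further clock genes was followed, made up of additional activators and repressors, output factors, the kinases and ubiquitin ligases that set protein stability, and clock-controlled enzymes. Npas2, a relative of Clock, had 0 to 11 counts per library and was not tested, which left 24. None of the 24 was called for DCZ against saline in Th-Cre mice (2 at an unadjusted p under 0.05), in WT mice (3) or in the interaction (3). The 2 in Th-Cre mice were Cipc, whose protein inhibits CLOCK, with a log2 fold change of -0.21 ± 0.0692 (edgeR adjusted p = 0.576), and Bhlhe40, an E-box repressor also known as DEC1. Bhlhe40 had 79.6 ± 24 CPM after DCZ and 121 ± 23.1 after saline, a log2 fold change of -0.61 ± 0.207 that did not pass (edgeR adjusted p = 0.589).

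Between genotypes after saline, 9 of the 24 were called (37.5%, against 24.9% of all genes), 8 higher and 1 lower in Th-Cre mice, with a median log2 fold change of 0.24 against -0.01 over all genes. The list was chosen with earlier results of these data known, so these shares are a description and not a test. Among the regulators of protein stability, Fbxw11 (0.47) and Csnk1d (0.34), a ubiquitin ligase subunit and a kinase that act on PER proteins, rose. Fbxw11 averaged 39.7 ± 2.73 CPM in Th-Cre saline and 28.7 ± 1.69 in WT saline mice, and Csnk1d 62.4 ± 2.39 in Th-Cre saline and 49.4 ± 4.47 in WT saline mice. For both, every Th-Cre saline mouse lay above every WT saline mouse (edgeR adjusted p = 0.000569 for Fbxw11 and 0.00264 for Csnk1d). Again the share of all genes that separate in this way is not given here.

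The E-box repressor Bhlhe41 rose by 0.49 in the same comparison (edgeR adjusted p = 0.0445). All 4 clock-controlled enzymes on the list rose as well in the fit over all mice: Wee1 (0.58), a kinase that holds back mitosis, Alas1 (0.38), which starts heme synthesis, Nampt (0.37), which makes the NAD precursor, and Pck1 (0.33), of glyceroneogenesis in fat, with edgeR adjusted p from 0.0291 for Pck1 to 0.0449 for Alas1. Timeless, better known in mammals for its part in DNA replication, fell by 0.93, with 6.36 ± 1.1 CPM in Th-Cre saline and 12.2 ± 3.32 in WT saline mice (edgeR adjusted p = 0.00153).

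After DCZ 5 of the 24 were called between genotypes (20.8%, against 13.8% of all genes). Fbxw11 (0.38), Csnk1d (0.25) and Btrc (0.39), which like Fbxw11 encodes a ligase subunit for PER, were higher in Th-Cre mice, with edgeR adjusted p from 0.00236 for Fbxw11 to 0.0233 for Csnk1d. Cipc, whose protein binds and inhibits CLOCK, was lower (-0.24, 39.2 ± 5.11 CPM in Th-Cre DCZ and 46.3 ± 4.17 in WT DCZ mice). Fbxw11 and Csnk1d passed after both injections, and the clock-controlled enzymes had log2 fold changes between 0.09 and 0.45 after DCZ, none called.

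These counts were lower with library number as a term and without the libraries with muscle transcripts. With library number (lower or upper 6 of each genotype) as a term, 0 of 13129 genes were called after saline, and so 0 of the 24. Over all genes 523 were called after DCZ with that term. The fit with it compares the genotypes at the lower 6 library numbers, with 1 WT saline mouse among them. Without the 6 libraries with muscle transcripts, an alternative chosen after seeing the data, 0 of the 24 were called after saline and 1, Fbxw11, after DCZ. The calls over all genes were then 109 after saline and 535 after DCZ. Fbxw11 had 0.41 ± 0.0999 after saline (edgeR adjusted p = 0.0521) and 0.38 ± 0.0879 after DCZ (adjusted p = 0.0224), and Timeless -0.87 ± 0.24 after saline (adjusted p = 0.0615). Alas1 had 0.14 ± 0.15 after saline (edgeR adjusted p = 0.585), and Wee1 (0.47), Pck1 (0.28) and Nampt (0.27) had adjusted p from 0.221 to 0.338.

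**Figure D3:**
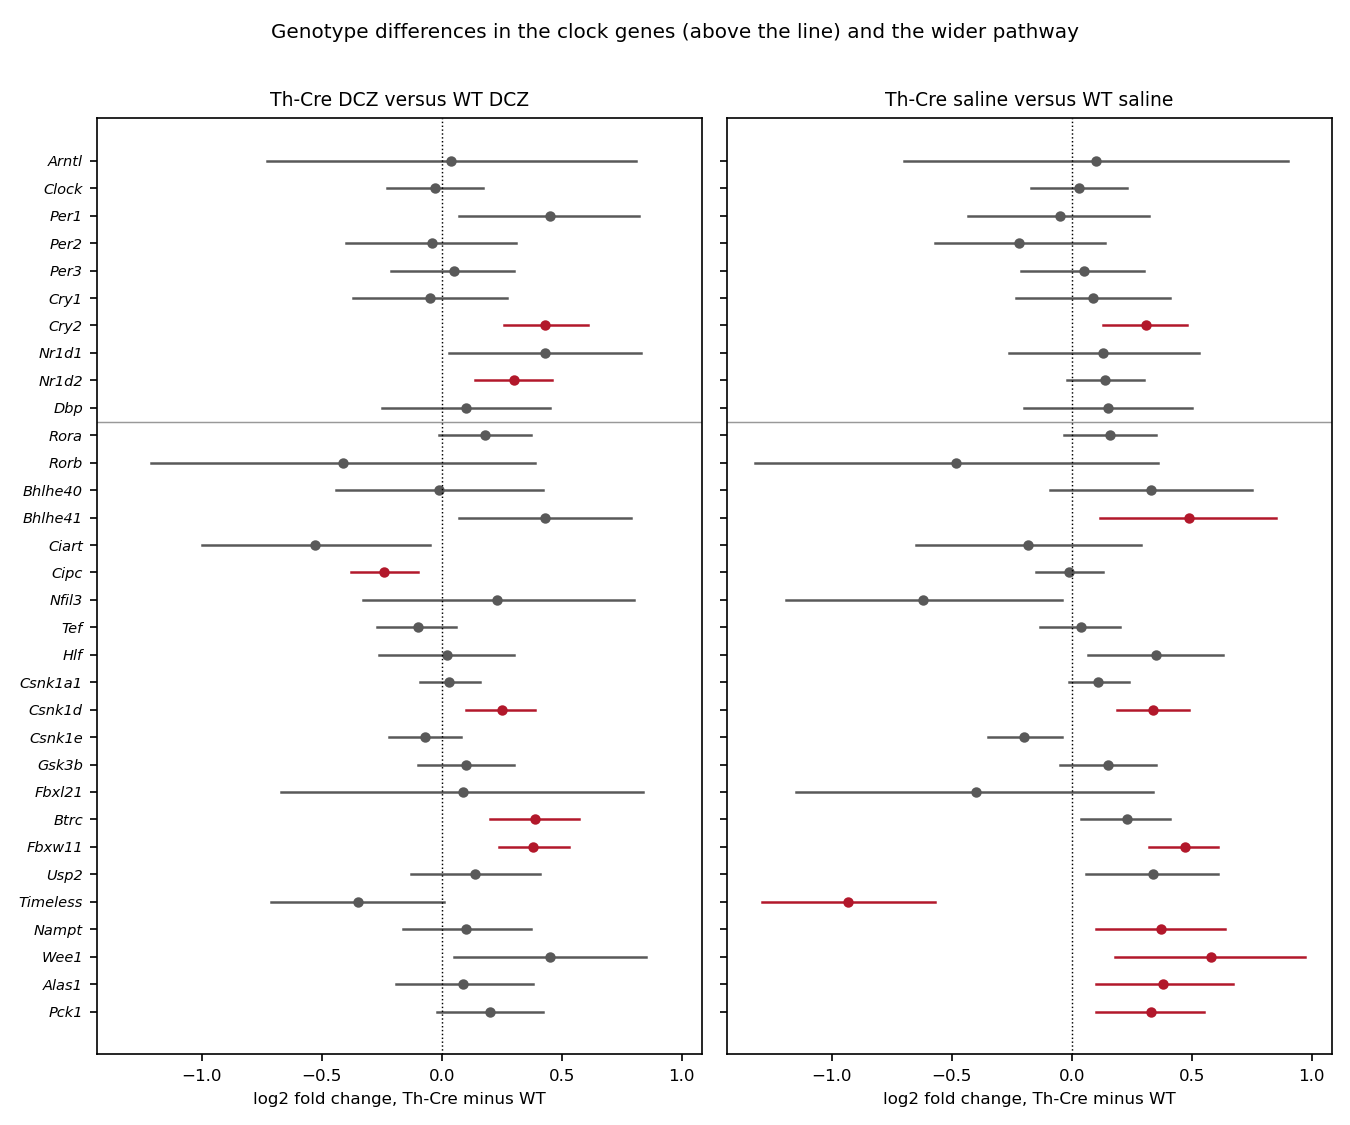
Fitted log2 fold changes of Th-Cre over WT mice after DCZ (left) and after saline (right), with 95% intervals, for the 10 clock genes (above the line) and tested genes of the wider list (below it); red marks an edgeR adjusted p under 0.05. Fbxw11 and Csnk1d are to the right of 0 in both panels (0.38 and 0.25 after DCZ, 0.47 and 0.34 after saline), and Timeless lies farthest to the left after saline (-0.93).

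Females and males, compared over all 24 mice with the group means held, differed in none of the 10 clock genes at an edgeR adjusted p under 0.05, against 8.07% of all genes called (4.11% higher and 3.95% lower in females). At an unadjusted p under 0.05 there were 4 clock genes, among 2980 genes in all. Per1 ran from 58 to 152 CPM with a median of 87.2 in females, against 70 to 176 with a median of 109 in males, a log2 fold change of -0.35 ± 0.129 (edgeR adjusted p = 0.0946). Per2 had the opposite sign, 0.29 ± 0.123 (adjusted p = 0.151), with means of 46.4 ± 10.2 CPM in females and 38.2 ± 8.26 in males (n = 12 each).

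Clock averaged 33.2 ± 3.41 CPM in females and 29.2 ± 3.69 in males, and its log2 fold change of 0.18 ± 0.0688 came with an edgeR adjusted p of 0.105. Nr1d1 averaged 89.9 ± 22.9 CPM in females and 112 ± 34.7 in males (-0.29 ± 0.137, adjusted p = 0.203). Of the 12 muscle markers 9 were called higher in females, and 4 of the 6 libraries with muscle transcripts came from females. Without these libraries Per1 passed, at -0.50 ± 0.145 (edgeR adjusted p = 0.0461). Of the wider list, 2 of 24 (8.33%, near the background) were lower in females, Bhlhe41 (-0.42) and Btrc (-0.23), and neither was called without the same libraries (edgeR adjusted p = 0.121 for Bhlhe41 and 0.0536 for Btrc).

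Since the loop ties its genes to each other, 6 pairs of clock genes were compared across mice within each genotype, after group and sex means were removed from log2 CPM. Per1 and Per2 had the strongest relation, with Pearson's r of 0.66 in Th-Cre mice (rho 0.64) and 0.71 in WT mice (rho 0.76) over 12 mice each. By two-sided permutation within groups with 100000 resamples and adjustment over the 12 relations, none passed. For Per1 and Per2 the permutation p for r was 0.0442 in Th-Cre and 0.0158 in WT mice, each 0.188 after adjustment, and the adjusted permutation p for rho was 0.209 in Th-Cre and 0.0902 in WT mice. Leaving out the 2 mice farthest from the median of Per1, r was 0.39 in Th-Cre and 0.77 in WT mice, so in Th-Cre mice the relation rested in part on those mice.

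Arntl and Dbp, which peak at opposite times of day, had r of -0.43 in Th-Cre mice (rho -0.52, permutation adjusted p = 0.192) and -0.58 in WT mice (rho -0.59, permutation adjusted p = 0.191). The value in Th-Cre mice was -0.00 without the 2 mice farthest in Arntl, and that in WT mice -0.61. Arntl with Per3 gave -0.61 in Th-Cre and -0.48 in WT mice, and Arntl with its partner Clock 0.62 in Th-Cre and 0.30 in WT mice. Arntl with Nr1d1, the receptor that represses it, had opposite signs, 0.42 in Th-Cre and -0.34 in WT mice, and Nr1d1 with Dbp gave 0.52 and 0.25, for Th-Cre and WT mice in that order. All 12 permutation adjusted p were 0.188 or more for r and 0.0902 or more for rho.

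**Figure D4:**
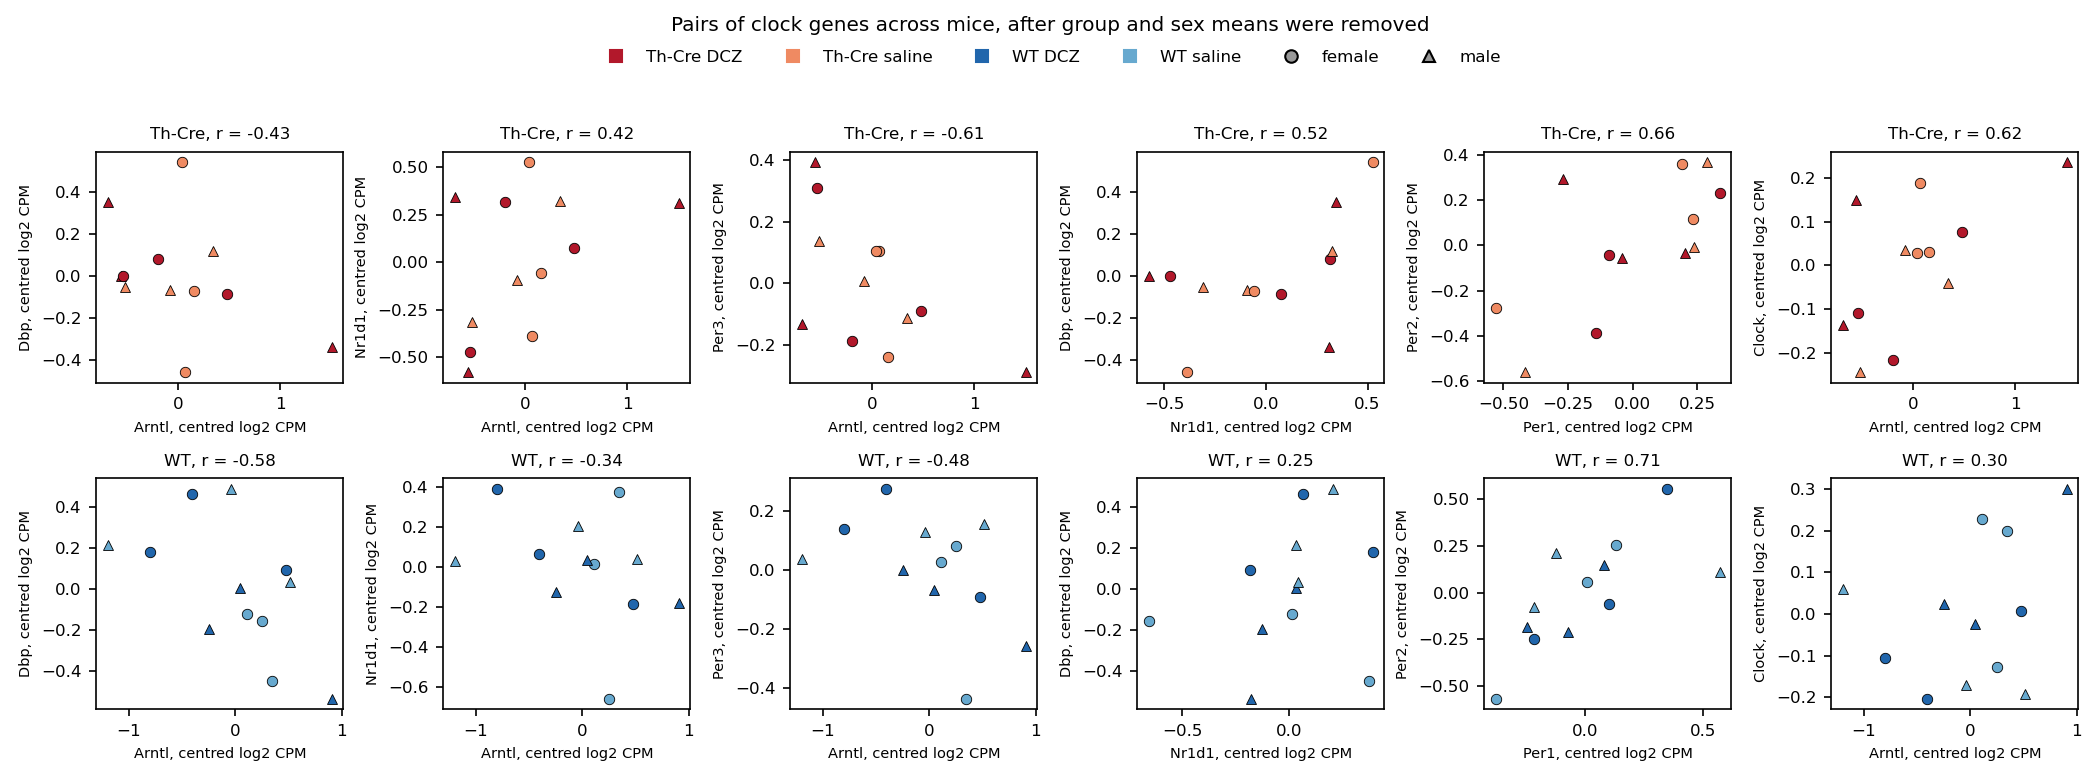
Pairs of clock genes across mice in log2 CPM after removal of group and sex means (both axes), with 12 Th-Cre mice in the upper row and 12 WT mice in the lower row; colours mark the groups and shapes the sexes. Per1 and Per2 lie along a rising line in both rows (r = 0.66 and 0.71), while Arntl and Nr1d1 slope in opposite directions (0.42 and -0.34), and no relation passed the permutation test after adjustment.

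As a description without a test, the genes most like Per1, Dbp and Arntl over all 24 libraries were sought among 10889 genes outside both lists, by Pearson's r of the same centred values. Those most like Per1 were Lrrc8a (0.86), Csrnp1 (0.81), Mt1 (0.81), Nfkbia (0.80) and Spry1 (0.80). For Dbp they were Nudt18 (0.76), Ano8 (0.75), Ndufaf3 (0.75), Marc2 (0.74) and Bphl (0.74). Arntl, the scarcest member, had lower values, led by Zfp26 (0.71), Zfp955a (0.66), Tti2 (0.66), Pdcd2 (0.65) and Zfp110 (0.65). These values share library depth and scaling, and the highest of many r is high in part because it was picked.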

How the data were processed

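Per the labels, polyA RNA of interscapular brown fat from 24 separate mice was sequenced with TruSeq libraries. The authors deposited estimated counts per gene symbol, as whole numbers, made with kallisto 0.44.0 on GRCm38.p6 per the submitters' processing notes; the sources used here do not give the transcript set or the use of strand. Genes were filtered with filterByExpr by group, which kept 13129 genes with 99.9% of the counts, scaled by the trimmed mean of M values and fitted with edgeR 4.0.16 (R 4.3.3) by quasi-likelihood, with a mean per group and a sex term over all 24 libraries. Every adjusted p without another method is from this edgeR test with Benjamini-Hochberg adjustment over 13129 genes and a threshold of 0.05. Standard errors are log2 fold changes divided by the root of F. The biological coefficient of variation was 15.6%. On simulated data the test recovered most of the known changes, which were larger than those fitted here for Cry2 and Nr1d2. Smaller changes were not simulated. Exon lengths and coordinates (1-based, GRCm38) are from GENCODE M21. Log2 CPM used a prior count of 2. Alternatives were DESeq2 1.42.0, limma-voom (limma 3.58.1), other scalings, filters and covariates, each sex, and left-out libraries. All 10 clock genes, the genes of the wider list called in a comparison (apart from some that are counted but not reported here), and the 5 genes most like Arntl, Dbp and Per1 were named, with Npas2, Bhlhe40 and the overlapping Thra, Sphk2 and D930015M05Rik added. The members and lists were chosen with earlier results of these data known.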

Additional observations from a re-analysis of the deposited data

Results flagged for a closer look

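In 40 groups of 6 values, 1 for each clock gene in each group of mice, the highest or lowest mouse was set against the others by Dixon's test at the 95% level. Chance passes this test in about 1 of 20 such groups, and 2 of the 40 passed. Per2 in WT DCZ mouse 10 was 60.9 CPM, while the other 5 mice of that group lay between 34.3 and 43.9 CPM (gap over range 0.64). Cry2 in WT DCZ mouse 6 was 31.4 CPM, while the other 5 lay between 36.3 and 38.9 CPM (0.651). Leaving out any 1 library, these included, kept Cry2 higher in Th-Cre DCZ than in WT DCZ mice, with edgeR adjusted p between 0.00159 and 0.0108.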

How the results depend on the processing

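No called result reversed its direction. For DCZ against saline and for the interaction, the count of clock genes called was 0 under every alternative run. After saline, the count between genotypes (1) was 0 with library number (lower or upper 6 of each genotype) as a term, in males only, in females only and without the libraries with muscle transcripts. Over all genes the calls in these settings, in that order, were 0 of 13129, 658 of 13154, 6 of 13237 and 109 of 13414. The fit described above called 3270 of 13129. Cry2 was then 0.21 (edgeR adjusted p = 0.797), 0.21 (0.219), 0.40 (0.141) and 0.27 (0.132). With library number as a term, the fit compared the genotypes at the lower 6 library numbers. In WT mice 5 of those were DCZ and 1 was saline. After DCZ, the count (2) was 1 with library number as a term, where Nr1d2 was 0.27 (0.0768), and 0 in females only, where Cry2 was 0.38 (0.317) and Nr1d2 0.17 (0.554). Over all genes the calls were then 523 of 13129 and 30 of 13237, in that order, against 1808 of 13129 in the fit described above. In males only Nr1d1 was called as well, at 0.79 (edgeR adjusted p = 0.0435), where 735 of 13154 genes were called. These settings hold fewer mice or more terms; the cause was not tested further. Between the sexes the count (0) was 1 without the muscle libraries (Per1), where 836 of 13414 genes were called in all. It ran from 0 to 1 when each library was left out, with Clock called without WT DCZ mouse 3 (edgeR adjusted p = 0.0394) and Per1 without the Th-Cre saline male at 70 CPM (0.0494). The wider list had 0 calls after saline, 1 after DCZ and 0 between the sexes without the muscle libraries, an alternative chosen after seeing the data. It also had 0 calls after saline with library number as a term, where 0 of 13129 genes were called. Leaving out each library kept Cry2 called after saline (0.26 to 0.36) and after DCZ (0.39 to 0.48), and Nr1d2 after DCZ (0.27 to 0.35, adjusted p up to 0.0477). Among gene pairs in the 7 Th-Cre mice without muscle transcripts, r was 0.10 for Nr1d1 with Dbp, -0.78 for Arntl with Dbp, 0.97 for Arntl with Clock and 0.92 for Per1 with Per2, and no pair passed. Without the 2 mice farthest from the median of the first gene, r was 0.30, 0.15, 0.97 and 0.60, in that order. No paired analysis was possible because the mouse numbers are not shared between groups. Arntl, with 7 to 49 counts per library, is limited by depth.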
